A study of Homo sapiens with 4 samples.

Results

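The E2F family and its dimer partners were followed as 10 genes, E2F1 to E2F8, TFDP1 and TFDP2, out of 22852 gene symbols in the count tables of LSD1-depleted prostate carcinoma cells. The 10 genes were chosen by name, with earlier results of these data known. All 10 were found and all 10 passed the filter on low counts, which left 13252 genes in the tests. The cells were PC-3M-luc, a metastatic human prostate carcinoma line that is androgen-independent and carries a luciferase reporter, at passages 17 to 20. LSD1 knockdown cells were transfected with RNAi against LSD1 (gene KDM1A), and control cells with a control RNAi, by the same lipid reagent. Both groups were harvested after 72 h and hold 2 libraries each, called biological replicates. All libraries come from a single tumour line, so the comparison describes that line only.

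E2F proteins bind promoters of genes needed to enter and pass through S phase. E2F1, E2F2 and E2F3 are the activators, held in check by the retinoblastoma protein until cyclin-dependent kinases phosphorylate it. E2F4 and E2F5 act mainly as repressors with the pocket proteins p107 and p130, E2F6 represses with a Polycomb complex and without pocket proteins, and E2F7 and E2F8 are atypical repressors. E2F1 to E2F6 bind DNA together with a DP protein, made from TFDP1 or TFDP2, whereas E2F7 and E2F8 carry a second DNA-binding domain of their own. LSD1 removes methyl groups from histone H3 and is also known to demethylate the E2F1 protein.

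RefSeq promoter windows (GRCh38.p14) were found for 8 of the 10 genes; E2F5 and E2F8 had no entry. The 250 bases before the start are shown for the 3 activators and TFDP1, which hold an E2F motif there, and for E2F7, the member whose transcript fell most. They lie at chr20:33686386-33686635 (minus strand, E2F1), chr1:23531234-23531483 (minus, E2F2), chr6:20401629-20401878 (plus, E2F3), chr13:113584503-113584752 (plus, TFDP1) and chr12:77065570-77065819 (minus, E2F7). Capitals mark each match to TTTCCCGC, TTTCGCGC, TTTGCCGC or TTTGGCGC on either strand.
E2F1: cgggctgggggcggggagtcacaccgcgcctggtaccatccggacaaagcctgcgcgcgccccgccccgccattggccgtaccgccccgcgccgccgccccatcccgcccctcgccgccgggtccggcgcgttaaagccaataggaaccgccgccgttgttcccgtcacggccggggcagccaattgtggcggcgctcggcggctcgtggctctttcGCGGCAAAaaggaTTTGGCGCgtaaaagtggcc
E2F2: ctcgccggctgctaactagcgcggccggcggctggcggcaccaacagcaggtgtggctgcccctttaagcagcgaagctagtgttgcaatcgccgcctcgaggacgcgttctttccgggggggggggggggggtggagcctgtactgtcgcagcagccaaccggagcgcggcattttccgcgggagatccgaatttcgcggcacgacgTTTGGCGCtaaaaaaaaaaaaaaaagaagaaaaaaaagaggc
E2F3: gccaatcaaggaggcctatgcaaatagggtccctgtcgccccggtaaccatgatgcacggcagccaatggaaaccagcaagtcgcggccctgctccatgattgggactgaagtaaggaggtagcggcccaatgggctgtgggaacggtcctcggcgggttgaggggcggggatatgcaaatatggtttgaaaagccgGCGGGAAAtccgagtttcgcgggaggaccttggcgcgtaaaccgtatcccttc
TFDP1: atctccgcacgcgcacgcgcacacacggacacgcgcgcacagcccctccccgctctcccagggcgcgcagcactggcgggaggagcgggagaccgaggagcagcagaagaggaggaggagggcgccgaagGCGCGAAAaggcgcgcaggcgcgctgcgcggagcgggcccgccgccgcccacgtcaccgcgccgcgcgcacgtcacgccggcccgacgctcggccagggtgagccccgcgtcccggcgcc
E2F7: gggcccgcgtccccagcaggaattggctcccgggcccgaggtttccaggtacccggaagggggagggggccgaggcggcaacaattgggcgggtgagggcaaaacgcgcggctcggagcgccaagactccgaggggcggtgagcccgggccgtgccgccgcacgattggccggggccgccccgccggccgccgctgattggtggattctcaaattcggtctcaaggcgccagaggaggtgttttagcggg
The E2F1 window held 2 matches, 33 and 20 bases before the start, and the E2F2, E2F3 and TFDP1 windows 1 each, at 42, 53 and 120 bases. The windows of E2F4, E2F6, E2F7, the 3 starts of TFDP2 and a further start of E2F3 held none. A match was present in 2.79% of all 35116 windows of this length and in 5.59% of the 10603 tested genes with a window. CCAAT, the core letters of NF-Y sites, stood in either direction 4 times in the E2F7 window, 4 times in that of E2F3, 3 times in that of E2F1 and 2 times in 1 window of TFDP2. It was present in 32.01% of all windows and in 41.7% of tested genes with a window. A match describes these letters only.

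Counts assigned to genes were 12041283 and 12832064 in knockdown libraries and 12474811 and 12411268 in control libraries, so that 3 counts corresponded to between 0.234 and 0.249 per-million counts (CPM, counts scaled to library size). KDM1A was cut to 17.8 and 18.1 CPM in knockdown libraries, against 235.1 and 238.1 CPM in control libraries, in accord with the labels. Keratin and EPCAM markers of carcinoma cells summed to 1051 and 1089 CPM in knockdown libraries and to 982 and 980 CPM in control libraries, with KRT8 and EPCAM higher in knockdown cells. KRT18 and KRT19 were not called, at log2 fold changes of -0.12 (edgeR adjusted p = 0.268) and -0.066 (edgeR adjusted p = 0.567). The part of these markers in the results on E2F genes was not tested. The androgen-dependent markers KLK3 and KLK2 had no count, and none of the 5 luminal markers passed the filter. Of 10 markers of leukocytes, endothelium, fibroblasts and red cells, 5 were at 0 in every library, and only COL1A1 and PECAM1 were tested. Together the 10 reached 30.2 and 34.5 CPM in knockdown libraries and 36.5 and 32.7 CPM in control libraries. PECAM1 had 26 and 20 counts in knockdown libraries and 37 and 38 counts in control libraries and was called lower (edgeR adjusted p = 0.0482), a call lost in 9 of 12 alternative analyses, each single-library omission included.

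Between LSD1 knockdown and control cells a few members of the family differed, in opposite directions. E2F5 and TFDP2 rose and E2F7 and TFDP1 fell, whereas the 3 activators, E2F4, E2F6 and E2F8 did not pass the test. The 4 calls among 10 genes stand beside a background of 36.1%, the share of all tested genes called in either direction (edgeR adjusted p under 0.05). Of all tested genes 18.2% were called higher and 17.9% lower. Values of the knockdown and control libraries did not overlap for 7 of the 10 genes, where 67.2% of all genes showed this. Both shares of the members are near the background, so the counts are no result about the family. These are bulk libraries, in which fewer cells that express a gene and less RNA per cell cannot be told apart.

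**Figure D1:**
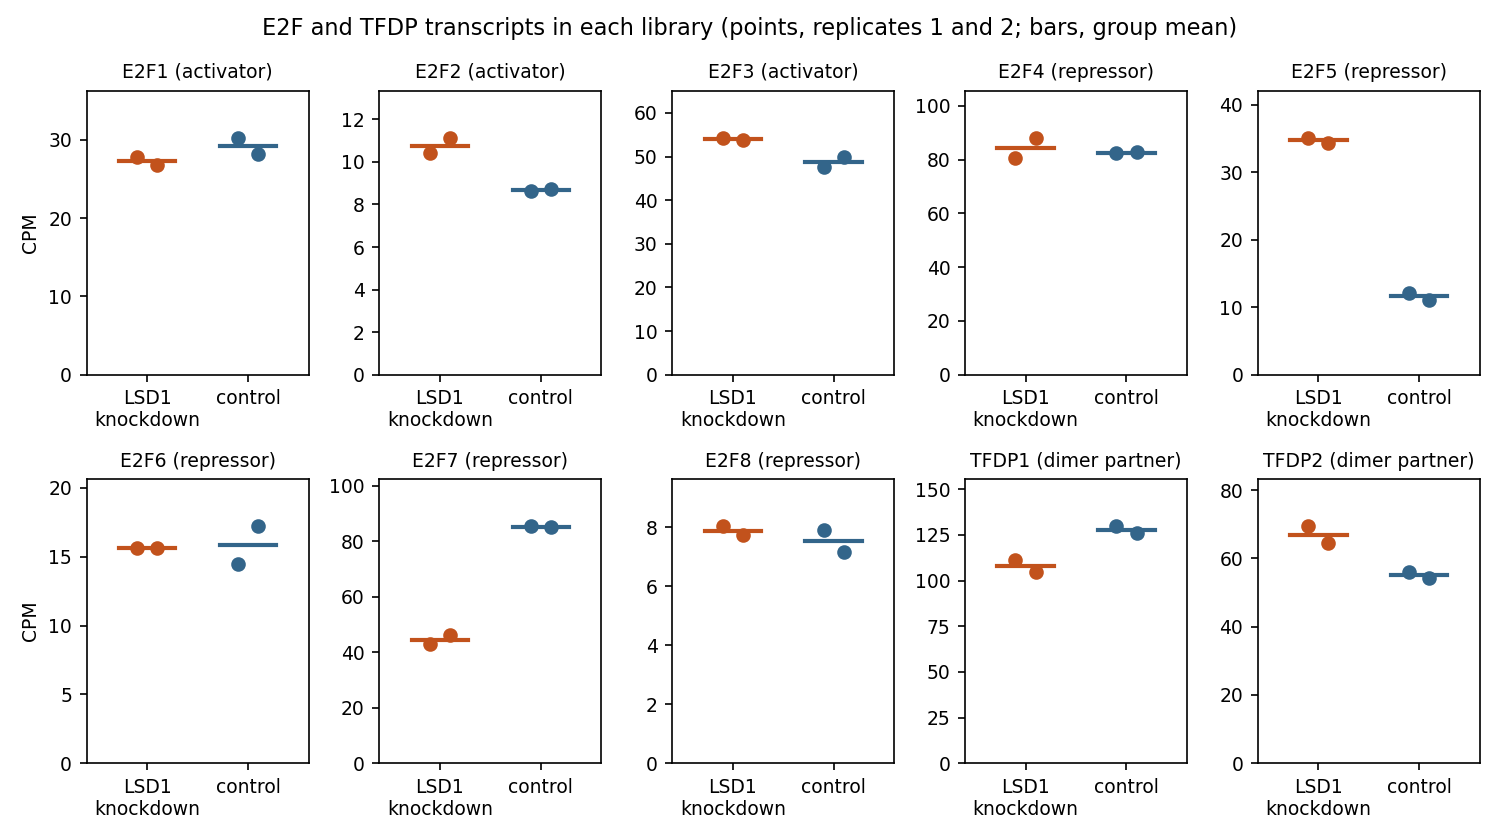
CPM (scaled by library, linear axes from 0) of the 10 genes in each library, with LSD1 knockdown left of control; points are libraries and bars group means. E2F5 stands at 35.1 and 34.4 CPM in knockdown libraries against 12.2 and 11.03 CPM in control libraries, and E2F7 at 42.8 and 46.2 CPM against 85.4 and 85.1 CPM.

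The activators E2F1, E2F2 and E2F3 showed no called change. E2F1, which drives S-phase genes and, when in excess, apoptotic ones, had 27.8 and 26.8 CPM in knockdown libraries and 30.3 and 28.2 CPM in control libraries. Its knockdown values were the lower ones by a narrow margin, with a log2 fold change of -0.10 (95% interval -0.32 to 0.12, edgeR adjusted p = 0.520). E2F2 had 10.4 and 11.1 CPM in knockdown libraries and 8.61 and 8.73 CPM in control libraries. The groups were apart, at a log2 fold change of 0.31, but the interval of -0.0070 to 0.63 reached 0 (edgeR adjusted p = 0.120). E2F3 had 54.3 and 53.7 CPM in knockdown libraries and 47.6 and 49.8 CPM in control libraries, a log2 fold change of 0.15 (95% interval -0.039 to 0.34, edgeR adjusted p = 0.215). None of the 3 was called by DESeq2 or limma-voom either, and 0 had an unadjusted p under 0.05. A fall of E2F1 by more than 0.32 on the log2 scale lay outside its interval.

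E2F3 is counted in 2 overlapping rows that differ in the first exon and share most reads. The row of the longer form (NM_001949) had 663 and 695 counts in knockdown libraries and 591 and 605 counts in control libraries. The row of the shorter form from an internal start (NM_001243076), which is known to act more as a repressor, had 638 and 667 counts in knockdown libraries and 547 and 555 counts in control libraries. The log2 ratios of knockdown over control CPM, scaled by library totals alone, were 0.18 for the longer and 0.25 for the shorter form. Their difference was not tested, since reads of shared exons count in both rows.

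E2F5 showed the largest change of the family. It had 429 and 445 counts in knockdown libraries and 151 and 134 counts in control libraries, or 35.1 and 34.4 CPM against 12.2 and 11.03 CPM. Both knockdown libraries were far above both control libraries. The mean was 34.8 ± 0.514 CPM in knockdown cells and 11.6 ± 0.796 CPM in control cells (SD, n = 2 each), so that E2F5 rose 2.99-fold, by 1.58 on the log2 scale (standard error 0.12, edgeR adjusted p = 5.34e-12). Of the 13252 tested genes 74 had a higher log2 fold change. The 3 rows of E2F5 moved alike, with log2 ratios of 1.62, 1.62 and 1.63 on library totals. Under all 12 alternative analyses E2F5 stayed called, with log2 fold changes between 1.51 and 1.65.

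On the opposite strand the gene RBIS (C8orf59 in GENCODE 29) shares 443 of the 1890 bases of the counted E2F5 transcript. AC011773.1, also on the opposite strand, shares 133 of them, and no counts were found under its name. No source used here says whether reads were counted by strand. RBIS had 921 and 978 counts in knockdown libraries and 906 and 918 counts in control libraries (log2 fold change 0.024, edgeR adjusted p = 0.858). The share of E2F5 counts that came from RBIS or AC011773.1 cannot be told from these tables. Other genes beside E2F5 did not follow it. LRRCC1, the nearest tested gene on the other side, fell by 0.54 on the log2 scale (edgeR adjusted p = 0.0189), SNX16 beyond it fell by 0.56 (edgeR adjusted p = 0.0252), and WWP1, beyond RBIS, had a log2 fold change of 0.065 (edgeR adjusted p = 0.598).

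The genes most like E2F5 over the 4 libraries, from those averaging 5 CPM or more, were TGFBR1, CDC42SE2 and MIPEP. Likeness was the distance between log2 CPM values centred on each gene's mean, which was 0.086 for TGFBR1, 0.13 for CDC42SE2 and 0.14 for MIPEP. TGFBR1, a receptor kinase for transforming growth factor beta, had 25.1 CPM in each knockdown library and 9.02 and 8.56 CPM in control libraries. CDC42SE2, an effector of the GTPase CDC42, had 12.3 and 11.98 CPM in knockdown libraries and 3.78 and 3.70 CPM in control libraries. MIPEP, a peptidase of mitochondria, had 18.01 and 16.2 CPM in knockdown libraries and 5.88 and 4.94 CPM in control libraries. With 4 libraries in 2 groups, likeness mostly reflects a fold change of similar size.

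E2F4, the most abundant E2F per length and the main partner of p130 in resting cells, showed no called change. It had 80.6 and 88.1 CPM in knockdown libraries and 82.5 and 82.7 CPM in control libraries, so that the groups overlapped. The log2 fold change was 0.031, with a 95% interval of -0.15 to 0.21 (edgeR adjusted p = 0.816). E2F6, which recruits a Polycomb complex to germline genes, had 15.6 CPM in each knockdown library and 14.5 and 17.2 CPM in control libraries. Its control values lay on both sides of the knockdown values (log2 fold change -0.020, 95% interval -0.29 to 0.25, edgeR adjusted p = 0.925).

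E2F7, an atypical repressor that binds without a DP partner and acts on G1/S genes, was the other strongly changed member. It had 523 and 598 counts in knockdown libraries and 1061 and 1034 counts in control libraries, or 42.8 and 46.2 CPM against 85.4 and 85.1 CPM. Both knockdown libraries were well below both control libraries. The mean was 44.5 ± 2.41 CPM in knockdown cells and 85.3 ± 0.215 CPM in control cells (SD, n = 2 each), a 1.91-fold fall with a log2 fold change of -0.94 (standard error 0.091, edgeR adjusted p = 8.05e-10). Of all tested genes 299 had a lower log2 fold change. Under all 12 alternatives E2F7 stayed called, with log2 fold changes between -0.99 and -0.89. Its neighbour CSRP2 had a log2 fold change of 0.15 (edgeR adjusted p = 0.658), while NAV3 on the other side fell by 0.52 (edgeR adjusted p = 0.000222).

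E2F8, the closest relative of E2F7, had no called change. It had 98 and 100 counts in knockdown libraries and 98 and 87 counts in control libraries, or 8.02 and 7.73 CPM against 7.89 and 7.16 CPM. The groups overlapped, and the log2 fold change of 0.064 had a 95% interval of -0.29 to 0.42 (edgeR adjusted p = 0.804). That interval lies wholly above the interval of E2F7, -1.12 to -0.75; the difference itself was not tested. Per kilobase, E2F7 exceeded E2F8 3.01-fold and 3.38-fold in knockdown libraries and 6.11-fold and 6.71-fold in control libraries.

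The dimer partners moved in opposite directions by small amounts. TFDP1, which encodes DP1, had 111.3 and 104.8 CPM in knockdown libraries and 129.7 and 126.0 CPM in control libraries. Both knockdown values lay below both control values, a log2 fold change of -0.24 with a standard error of 0.083 (edgeR adjusted p = 0.0208). TFDP2, which encodes DP2, had 69.4 and 64.5 CPM in knockdown libraries and 56.0 and 54.3 CPM in control libraries. Both knockdown values lay above both control values, a log2 fold change of 0.28 with a standard error of 0.091 (edgeR adjusted p = 0.0151). All 6 rows of TFDP2 had log2 ratios between 0.27 and 0.33 on library totals, and the other row of TFDP1 had -0.26.

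Neither partner's call held in every analysis. The TFDP1 call was lost without knockdown replicate 2 (edgeR adjusted p = 0.142), without control replicate 1 (edgeR adjusted p = 0.117) and without control replicate 2 (edgeR adjusted p = 0.0527). The TFDP2 call was lost without knockdown replicate 1 (edgeR adjusted p = 0.119), without control replicate 1 (edgeR adjusted p = 0.0525) and without control replicate 2 (edgeR adjusted p = 0.0998), and with DESeq2 (DESeq2 adjusted p = 0.0803). The directions stayed the same in all 12 alternatives. RefSeq lists 10 pseudogenes of the family, 4 of E2F6, 3 of TFDP1, 2 of E2F3 and 1 of E2F4, so counts of these genes are uncertain to the extent that reads were split between copies.

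**Figure D2:**
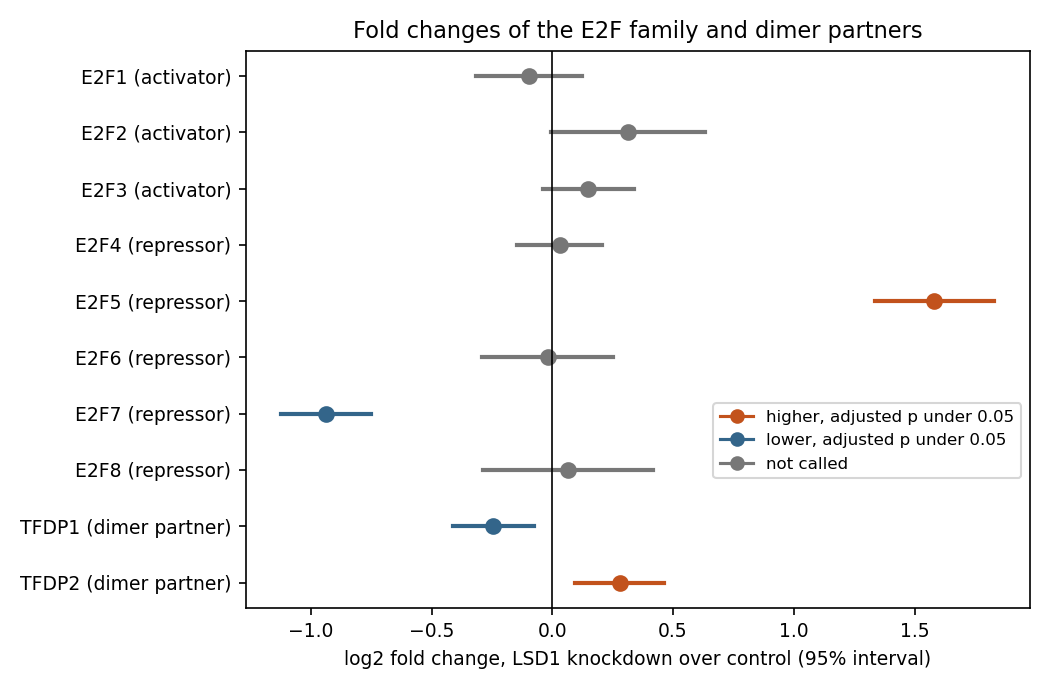
Log2 fold change of LSD1 knockdown over control for each gene (points) with its 95% interval (lines), ordered from E2F1 to TFDP2. The intervals of E2F5 (1.34 to 1.83) and E2F7 (-1.12 to -0.75) lie apart from those of the other 8 genes.

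Activators and repressors were also set against each other as classes. The mean log2 CPM of E2F1, E2F2 and E2F3 minus that of E2F4 to E2F8 was -0.13 and -0.15 in knockdown libraries and -0.11 in each control library. The median log2 fold change was 0.15 over the 3 activators, 0.031 over the 5 repressors and 0.0023 over all tested genes. The repressors held the widest range of fold changes, from -0.94 for E2F7 to 1.58 for E2F5. These class values are descriptions and were not tested.

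Levels were compared between members as CPM per kilobase of the paired GENCODE 29 transcript. TFDP1 was at 40.8 ± 1.72 in knockdown cells and 48.3 ± 0.980 in control cells (SD, n = 2 each), and E2F4 at 40.3 ± 2.52 in knockdown cells and 39.4 ± 0.0701 in control cells. These were the highest levels, and they overlapped in knockdown libraries only. Next came TFDP2, at 28.4 in knockdown cells and 23.4 in control cells, although its rows pair with transcripts of 1403 to 9857 bases, so that its place depends on the 2360 bases of the row used. Knockdown cells then had E2F5 at 18.4, E2F3 at 11.4, E2F1 at 10.9, E2F7 at 7.76, E2F6 at 4.86, E2F8 at 2.43 and E2F2 at 2.07 CPM per kilobase. Control cells had E2F7 at 14.9, E2F1 at 11.7, E2F3 at 10.3, E2F5 at 6.13, E2F6 at 4.92, E2F8 at 2.32 and E2F2 at 1.67 CPM per kilobase. Other neighbours in either order did not overlap between libraries, though E2F3 and E2F1 in knockdown cells differed by little, at 11.4 and 11.3 against 11.1 and 10.7. The rows of E2F5, with similar counts, pair with transcripts of 1094 to 1890 bases. Its place, and its shares and ratios per kilobase below, thus depend on the 1890 bases of the row used.

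The make-up of the E2F transcripts changed within the repressor class while the class kept a similar share. Summed over the 8 E2F genes, transcripts reached 96.4 and 99.7 CPM per kilobase in knockdown libraries and 91.4 and 91.1 in control libraries. The repressors held 74.5% and 75.8% of this sum in knockdown libraries and 74.0% and 74.3% in control libraries. E2F5 held 19.3% and 18.3% in knockdown libraries and 7.04% and 6.41% in control libraries. E2F7 held 7.74% and 8.08% in knockdown libraries and 16.3% in each control library. E2F5 thus exceeded E2F7 2.49-fold and 2.26-fold per kilobase in knockdown libraries, whereas in control libraries the ratio of E2F5 to E2F7 was 0.432 and 0.394. E2F4 exceeded E2F5 2.07-fold and 2.31-fold in knockdown libraries and 6.12-fold and 6.76-fold in control libraries.

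**Figure D3:**
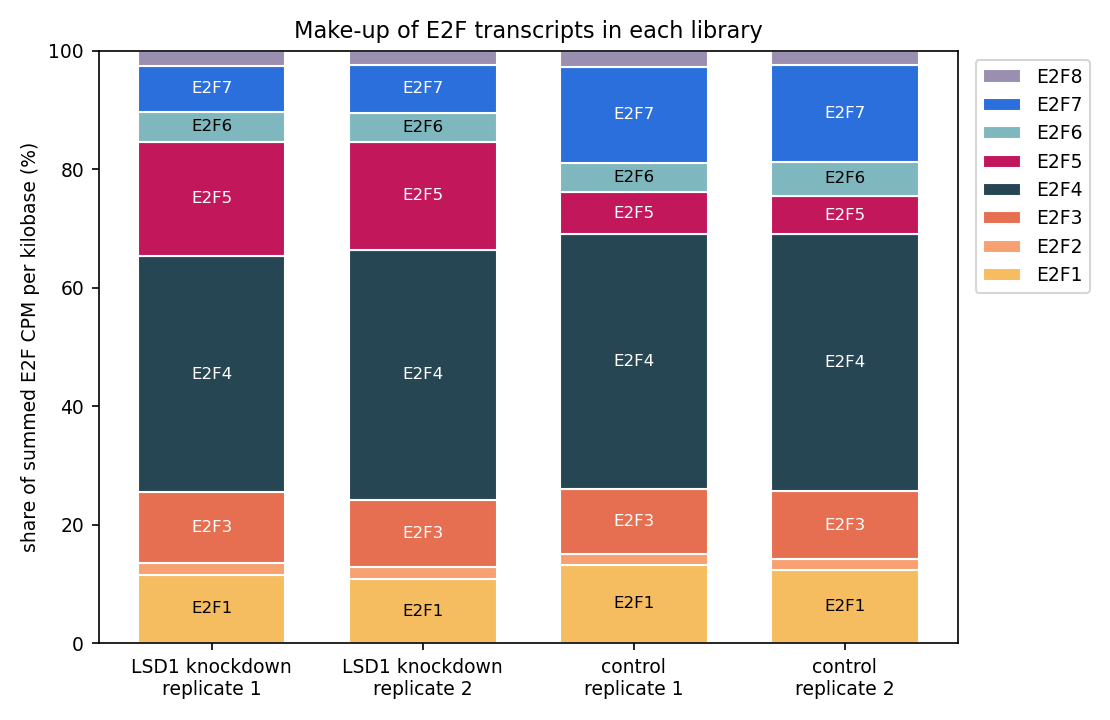
Share of each E2F gene in the summed CPM per kilobase of E2F1 to E2F8 (percent, stacked to 100) in the 2 LSD1 knockdown and 2 control libraries. E2F5 holds 19.3% and 18.3% in knockdown libraries against 7.04% and 6.41% in control libraries, E2F7 holds 7.74% and 8.08% against 16.3% in each, and E2F4 has the largest share in all 4 libraries.

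Genes of the E2F pathway were read from 8 lists by role, each beside the background of 18.2% called higher and 17.9% called lower. The lists were chosen with earlier results of these data known, so their counts are descriptions. The lists share genes, among them MYBL2, CCNA2, CHEK1, CDK2 and CCNE2, each called lower, so their counts are not separate results. In the list of 40 G1/S genes known as E2F targets, 33 fell, 1 rose and 6 did not pass, with a median log2 fold change of -0.51. RRM1 and RRM2, subunits of ribonucleotide reductase, fell 1.76-fold and 1.67-fold, FEN1, a flap endonuclease, fell 1.78-fold and MCM5, a replicative helicase subunit, fell 1.73-fold (edgeR adjusted p = 1.04e-07 or lower for each). RRM1 stood at 88.8 and 80.9 CPM in knockdown libraries and 139.6 and 158.5 CPM in control libraries. FEN1 shares 166 of 2296 counted bases with TMEM258 and 49 with FADS2. RRM2 shares 1077 of 3434 with the transcript AC007240.1, and RRM1 shares 63 of 3076 with RRM1-AS1. FEN1, RRM2 and RRM1 are uncertain to that extent. The gene that rose was CCNE1, cyclin E1, with 19 and 25 counts in knockdown libraries and 11 and 8 counts in control libraries (log2 fold change 1.17, edgeR adjusted p = 0.0226). Its call was lost without knockdown replicate 2 (edgeR adjusted p = 0.152), without control replicate 1 (edgeR adjusted p = 0.0714) and without control replicate 2 (edgeR adjusted p = 0.184), and where rows were summed (edgeR adjusted p = 0.0516); DESeq2 gave it no adjusted p. CCNE2, its close relative and also in the list, had 116 and 102 counts in knockdown libraries and 164 and 144 counts in control libraries (log2 fold change -0.53, edgeR adjusted p = 0.00777).

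The pocket proteins that hold E2Fs were not called. RB1, the partner of the activators, had 421 and 435 counts in knockdown libraries and 466 and 435 counts in control libraries (log2 fold change -0.11, edgeR adjusted p = 0.435). RBL2, which encodes p130, had a log2 fold change of 0.0026 (edgeR adjusted p = 0.985), and RBL1, which encodes p107, of -0.21 (edgeR adjusted p = 0.192). The 11 listed genes covered pocket proteins, subunits of DREAM (the assembly that E2F4 and E2F5 join) or MuvB, and factors that work with them. Of these 5 fell and 0 rose by edgeR, with 0 higher at an unadjusted p under 0.05 and 0 by DESeq2 or limma-voom. FOXM1 and MYBL2, the mitotic and late G1 factors that work with MuvB, fell 1.39-fold and 1.29-fold, and the subunits RBBP4 and LIN54 fell 1.27-fold and 1.34-fold. The count of lower genes was 3 with DESeq2 and 3 without control replicate 2, where LIN54 was at an edgeR adjusted p of 0.0570. RBBP4 shares 1706 of 7943 counted bases with SYNC, which fell by 0.34 on the log2 scale, and FOXM1 shares 779 of 3475 with ITFG2.

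Among 14 tested G1 cyclins, their kinases and inhibitors, which set the phosphorylation of the pocket proteins, 6 fell, 2 rose and 6 did not pass. CCND3, a D cyclin, fell 1.44-fold, and CDK6, its kinase, fell 1.31-fold. CDK6 shares 81 of 1465 counted bases with AC002454.1 on the opposite strand. The CDKN2A row of the p14ARF transcript (NM_058195), which shares exons with the p16 transcript, fell 1.40-fold. CDKN2B, the inhibitor p15, rose 1.28-fold, to 217.1 and 217.7 CPM in knockdown libraries against 171.0 and 168.8 CPM in control libraries. CCNE1 was the other gene that rose. The D cyclin CCND1 and the kinase CDK4 were not called. CCND1 had 9281 and 10484 counts in knockdown libraries and 9076 and 9250 counts in control libraries. Its log2 fold change was 0.073 (edgeR adjusted p = 0.524), and that of CDK4 was -0.14 (edgeR adjusted p = 0.159). The inhibitor CDKN1A was also not called, at a log2 fold change of 0.36 (edgeR adjusted p = 0.0581). It had 200 and 240 counts in knockdown libraries and 202 and 133 counts in control libraries. The count of higher genes was 1 with DESeq2 and 1 with rows summed. It was 3 with limma-voom, 3 with no normalization factor and 3 with the replicate number as a block. Leaving out single libraries moved it in both directions.

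Genes listed as regulators of E2F proteins divided. Of 17, 5 rose, 5 fell and 7 did not pass. SETD7, the methyltransferase that acts on E2F1 in opposition to LSD1, had 186.2 and 177.1 CPM in knockdown libraries and 125.0 and 149.7 CPM in control libraries. The knockdown values lay above the control values, a 1.32-fold rise (edgeR adjusted p = 0.000424). EP300, an acetyltransferase of E2F1, rose 1.32-fold. It shares 60 of 9587 counted bases with AL035658.1 and 54 with MIR1281. CDC20, an activator of the anaphase-promoting complex, fell 1.46-fold, and CCNA2, cyclin A2, which with CDK2 phosphorylates the E2F1 and DP1 dimer, fell 1.36-fold. CCNA2 shares 253 of 2797 counted bases with EXOSC9 on the opposite strand. The F-box genes SKP2 and CCNF, which target E2F1 and other E2Fs for degradation, had log2 fold changes of -0.058 (edgeR adjusted p = 0.692) and -0.11 (edgeR adjusted p = 0.453). The count of higher genes was 3 with DESeq2, with no filter, with rows summed and without control replicate 2, and without knockdown replicate 2 the count of lower genes was 3.

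Of 10 tested apoptotic genes that E2F1 is known to induce, 5 fell, 0 rose and 5 did not pass, with 0 higher at an unadjusted p under 0.05 by edgeR and 0 by DESeq2 or limma-voom. The p14ARF row of CDKN2A belongs to this list too. PMAIP1, which encodes NOXA, fell 1.46-fold, to 44.5 and 44.1 CPM in knockdown libraries against 54.1 and 75.7 CPM in control libraries, and BCL2L11, which encodes BIM, fell 1.27-fold. Without control replicate 2 the edgeR adjusted p was 0.0648 for PMAIP1 and 0.0770 for BCL2L11, and DESeq2 called 3 of the list lower. BCL2L11 shares 727 of 5224 counted bases with MIR4435-2HG, which fell by 0.44 on the log2 scale. TP73 had 4 and 6 counts in knockdown libraries and 13 and 5 counts in control libraries and was not tested.

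The partners of E2F6 in the Polycomb complex PRC1.6 were not called. Of 14 genes 0 rose and 0 fell by edgeR, DESeq2 or limma-voom, and 0 had an unadjusted p under 0.05. The count of lower genes was 1 without knockdown replicate 1 and 1 without control replicate 2. Of 15 germline genes that this complex represses in mouse, 3 were tested and 0 were called by edgeR or DESeq2. TAF7L had 13 and 14 counts in knockdown libraries and 4 and 7 counts in control libraries (edgeR adjusted p = 0.0574), the 1 germline gene with an unadjusted p under 0.05 and the 1 called by limma-voom. By edgeR 1 germline gene was called higher with no normalization factor and 1 with rows summed. The 12 genes not tested were at 6 counts or fewer in each library.

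E2F5 and E2F4 are also known to drive centriole amplification in multiciliated cells together with Multicilin. Of 11 genes of that programme 5 were tested, 1 rose and 0 fell by edgeR, with 0 lower at an unadjusted p under 0.05 and 0 by DESeq2 or limma-voom. With rows summed 1 was called lower. The gene that rose was MYB, a transcription factor of early multiciliated differentiation and of cycling progenitors, with 17.3 and 15.4 CPM in knockdown libraries and 9.50 and 11.8 CPM in control libraries (log2 fold change 0.62, edgeR adjusted p = 0.00104). MYB shares 103 of 3672 counted bases with MYB-AS1. MCIDAS, which encodes Multicilin, had 63 and 53 counts in knockdown libraries and 50 and 53 counts in control libraries (log2 fold change 0.14, edgeR adjusted p = 0.668). FOXJ1, the master factor of motile cilia, had no count in knockdown libraries and at most 1 count in a control library.

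**Figure D4:**
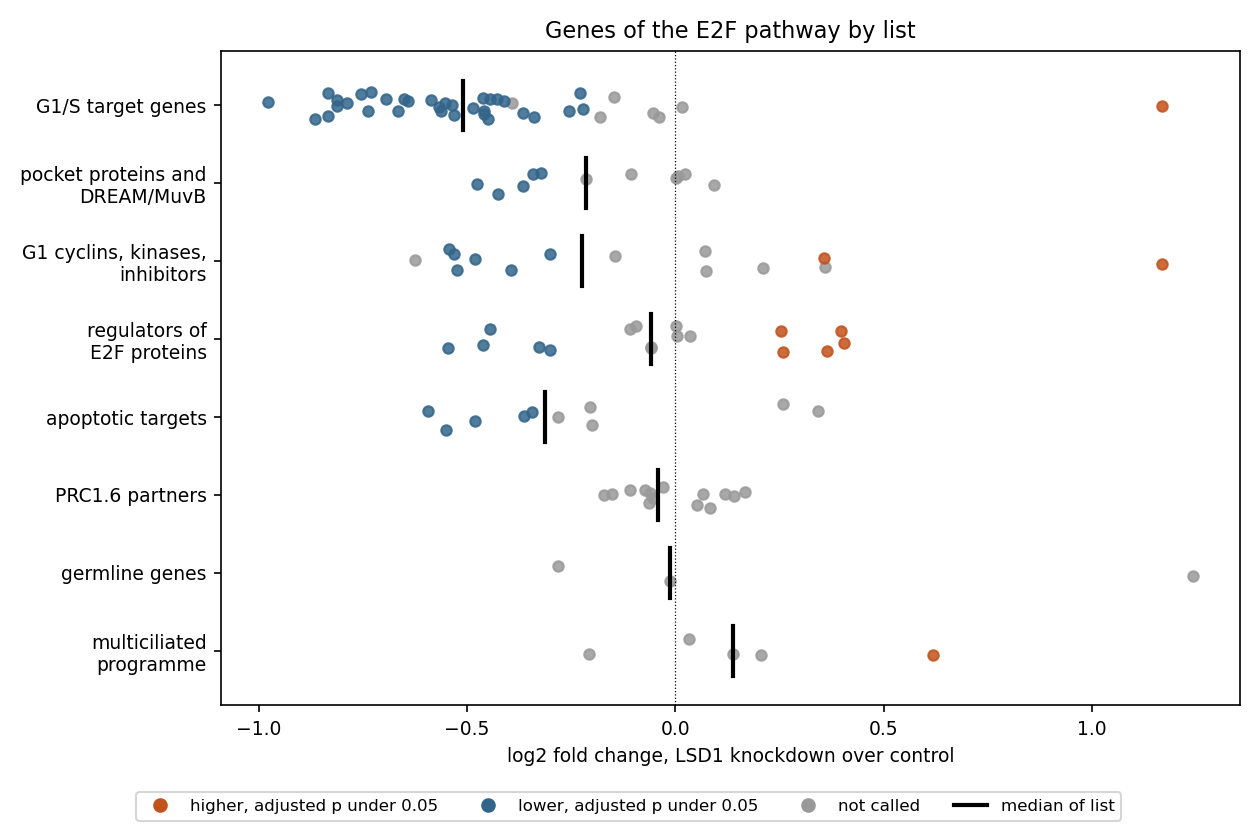
Log2 fold change of LSD1 knockdown over control for every tested gene of 8 pathway lists (points, spread vertically for visibility), with the median of each list as a bar. The 40 G1/S target genes lie mostly below 0 with a median of -0.51, while the 14 PRC1.6 partners sit around 0.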

How the data were processed

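Total RNA of 4 libraries was sequenced. Per the labels the cells were harvested 72 h after transfection. The authors deposited a header-less table of raw counts for each library, a RefSeq transcript a row; the unit was judged from the values. TopHat2, HOMER, edgeR, DESeq 1.8.3 and hg19 are named per the submitters' processing notes; their roles, the strand setting and how reads were counted: not given in the sources used here. The series text speaks of knockout and the labels of RNAi.

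Of 38767 rows, 37205 were matched to symbols by a RefSeq table and 472 by GENCODE 29; 1090 unmatched rows, 1.38% to 1.40% of counts, entered neither library sizes nor tests. The row with the highest mean stood for a symbol. Low counts were removed by filterByExpr (minimum count 10, minimum total 15). TMM scaling and edgeR 4.0.16 (R 4.3.3, quasi-likelihood) followed, modelling group alone; p-values were Benjamini-Hochberg adjusted over 13252 genes and called under 0.05. CPM values are scaled by TMM except where library totals are named, and for summed markers. Intervals are 95% intervals of the fit. Replicates differed by more than counting noise (chi-square per gene 4.30 between knockdown libraries and 5.00 between control libraries). With 2 libraries a group, each p-value borrows its spread from all genes. Floors of 3 counts cover counting error only.

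The members and lists were chosen with earlier results of these data known. Named genes were the 10 members, KDM1A, up to 4 called genes per list by smallest adjusted p with up to 2 called against the list's direction, and the 3 genes most like the member that changed most. Other genes named (RB1, RBL1, RBL2, SKP2, CCNF, CCNE2, CCND1, CDK4, CDKN1A, CDK2, CHEK1, TAF7L, TP73, MCIDAS, FOXJ1, markers, neighbours and overlapping genes) fall outside that rule and were chosen after their values were seen. A gene chosen by it is not reported here. The 12 alternatives were limma-voom (limma 3.58.1), DESeq2 1.42.0, its size factors within edgeR, library totals alone, every gene kept, at least 1 CPM in 2 libraries, rows summed per symbol, the replicate number as a block, and each library left out. Promoters and transcripts are of GRCh38 and were used for letters, lengths and overlaps, never with hg19 coordinates.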

Additional observations from a re-analysis of the deposited data

How the results depend on the processing

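E2F5 and E2F7 kept their calls and directions under all 12 alternatives. DESeq2 called fewer genes, 1461 higher and 1556 lower against 2412 and 2375 in edgeR. Among members it called 1 higher and 2 lower, against 2 and 2 in edgeR. Over all pathway lists, with each gene counted once, it called 5 higher and 38 lower, against 8 and 48 in edgeR. Leaving out each library in turn gave 1771 to 1991 genes higher and 1889 to 1999 lower, 1 to 2 members higher and 1 to 2 lower, and 5 to 8 pathway genes higher and 39 to 45 lower. The directions of E2F4, E2F6 and E2F8, never called, turned in some. E2F6 was at 0.016 with no normalization factor. With each library left out, E2F4 ranged from -0.034 (without knockdown replicate 2) to 0.087, E2F6 from -0.14 to 0.11 (without control replicate 2) and E2F8 from -0.0040 (without control replicate 2) to 0.13. The cause was not tested. The mean log2 fold change of the 3 activators minus that of the 5 repressors was -0.022, and between -0.033 and -0.012 under the 12 alternatives. The replicate number as a block gave 2634 genes higher and 2637 lower and changed no call of a member; the numbers are not said to pair libraries, and deviations of same-numbered libraries correlated at 0.067 over genes. Having 2 libraries a group, and low counts in CCNE1, E2F2 and E2F8, limits what small changes could be called.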
